A study of Homo sapiens with 4 samples.

Results

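The 7 genes described here are transcription factors that drive epithelial-mesenchymal transition (EMT): ZEB1, ZEB2, SNAI1, SNAI2, TWIST1, TWIST2 and PRRX1. They were chosen by name, and all 7 were found, by Ensembl identifier, among the 34241 genes listed in any count table. Single-cell RNA-seq was performed on A375, an established human melanoma cell line with a BRAF mutation that activates the MAPK pathway. Untreated cells (S) were compared with cells made resistant to the BRAF inhibitor vemurafenib alone (RV), to vemurafenib with the MEK1/2 inhibitor cobimetinib (RVC), or to vemurafenib with the MEK1/2 inhibitor trametinib (RVT). Resistant cultures had been exposed to inhibitor doses below the IC50 for 10 to 14 days, and the inhibitors had been withdrawn 24 h before capture. Each condition was 1 library with 10000 cells loaded, so no difference between conditions could be set against a replicate spread, and no p-value is given. Levels are UMIs (unique molecular identifiers, counted transcript molecules) of a gene per 1000000 UMIs of its library (CPM), and ranges in parentheses are exact 95% intervals that cover counting error only.

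After filtering, 26585 of 30716 cell barcodes remained, 4177 to 8446 in a library. RVC and RVT stood apart from S and RV. The median cell held 3958 UMIs in RVC and 2864 in RVT, against 8799.5 in S and 11553 in RV, and the gene lists differ in part, with 33694 identifiers in the S and RV tables, 33538 in those of RVC and RVT and 32991 in all 4. Over genes whose mean over the libraries reached 10 CPM, the SD of the log2 ratio to S was 0.44 for RV but 1.59 for RVC and 1.67 for RVT. Log2 ratios of RVC and RVT to S also fell with the GC content of the transcript end (Spearman correlation across 6506 genes -0.35 and -0.41, a description). Depth or gene list and drug combination therefore cannot be told apart when RVC or RVT is set against S or RV. Between 36 and 103 barcodes were shared by any 2 libraries. Markers of the melanocyte lineage were partly present. Of 12 such markers, 1 (S), 1 (RV), 4 (RVC) and 2 (RVT) had no UMI. MITF was found in all libraries, and TYR had no UMI in any library. SOX10, the transcription factor of the melanocyte and neural crest lineage, had no UMI in RVC, nor had S100B. The 11 fibroblast markers summed to 3.50 CPM (S), 2.61 (RV), 215 (RVC) and 51.2 (RVT), and COL3A1 had no UMI in S or RV. The epithelial markers CDH1 and GRHL2 and the leukocyte marker PTPRC had no UMI in any library, whereas the keratin KRT8 was at 117 CPM or more in each.

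Most EMT factors bind E-box sequences in DNA and repress epithelial genes, above all CDH1, which encodes E-cadherin. ZEB1 and ZEB2 are zinc-finger and homeodomain proteins, SNAI1 (Snail) and SNAI2 (Slug) are zinc-finger repressors, TWIST1 and TWIST2 are basic helix-loop-helix proteins that pair with E proteins, and PRRX1 is a homeodomain protein of mesenchyme. In the melanocyte lineage, ZEB2 and SNAI2 belong to the differentiated state, whereas ZEB1 and TWIST1 mark dedifferentiated, invasive melanoma cells. The balance of the former against the latter pair is therefore used to describe melanoma states.

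The E-box that ZEB and Snail proteins prefer is CAGGTG, and these factors are known to act on one another's genes, so 3 promoters are shown: those of the ZEB pair, for the balance, and that of PRRX1, for its fall in each resistant library. RefSeq promoter windows on GRCh38.p14 (250 bases before to 50 bases after a start site) were matched for ZEB1, ZEB2, TWIST2 and PRRX1. Capitals mark every CANNTG, the general E-box, which reads as CANNTG on both strands and takes in CAGGTG and its reverse complement CACCTG. Of 7 ZEB1 windows, the one with the most CAGGTG matches is printed, at chr10:31318966-31319265 on the + strand. The ZEB2 window is chr2:144520070-144520369 on the - strand, and the PRRX1 window is chr1:170663881-170664180 on the + strand.
ZEB1: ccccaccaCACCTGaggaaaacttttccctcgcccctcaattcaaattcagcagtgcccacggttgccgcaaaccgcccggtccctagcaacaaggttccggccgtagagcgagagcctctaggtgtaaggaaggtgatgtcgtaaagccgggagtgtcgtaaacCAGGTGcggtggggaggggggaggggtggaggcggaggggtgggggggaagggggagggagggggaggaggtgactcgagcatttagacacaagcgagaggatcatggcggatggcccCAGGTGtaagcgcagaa
ZEB2: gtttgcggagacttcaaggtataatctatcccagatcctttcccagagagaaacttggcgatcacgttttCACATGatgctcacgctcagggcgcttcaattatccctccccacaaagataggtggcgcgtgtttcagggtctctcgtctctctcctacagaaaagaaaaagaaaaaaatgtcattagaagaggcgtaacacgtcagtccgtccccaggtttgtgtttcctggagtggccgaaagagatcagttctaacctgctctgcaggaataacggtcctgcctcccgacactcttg
PRRX1: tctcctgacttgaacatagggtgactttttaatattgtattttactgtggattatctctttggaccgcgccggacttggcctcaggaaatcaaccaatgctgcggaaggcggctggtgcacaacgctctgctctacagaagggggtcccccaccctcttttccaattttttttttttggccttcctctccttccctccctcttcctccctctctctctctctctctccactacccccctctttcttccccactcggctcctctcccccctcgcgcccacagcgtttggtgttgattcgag
This ZEB1 window held 3 CAGGTG matches counted on either strand, another ZEB1 window held 1 and the other 5 held 0. The ZEB2 window held 1 E-box of other letters, and the windows of PRRX1 and TWIST2 held none. Over the 35116 windows of the same 300 bases, 20.6% held CAGGTG on either strand and 68.7% held CANNTG. A match is a description of the letters and not of binding.

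ZEB1 (GRCh38, GENCODE 29: chromosome 10, 31318495 to 31529814, + strand) was the EMT factor with the most UMIs in RV and RVC. Its level was 10.0 CPM for S (9.24 to 10.9), 9.0 for RV (8.20 to 9.85), 17.9 for RVC (16.4 to 19.4) and 10.99 for RVT (9.74 to 12.4). RVC stood alone, and the intervals of RVT and S and of S and RV overlapped. The RVC level was 1.78-fold that in S (1.59 to 2.00), short of the 2-fold used here to call a change.

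ZEB2 (chromosome 2, 144364364 to 144524583, - strand) separated the libraries into pairs. Its level was 2.26 in S (1.89 to 2.67) and 2.04 in RV (1.67 to 2.46), against 14.8 in RVC (13.5 to 16.1) and 12.5 in RVT (11.2 to 14.0). Neighbours within each pair overlapped, although the interval of RVT over RVC, at 0.848-fold (0.734 to 0.979), left out 1. ZEB2 rose 6.55-fold in RVC (5.39 to 7.998) and 5.55-fold in RVT (4.52 to 6.85) relative to S, while RV over S was 0.904-fold (0.694 to 1.18). Centring on GC content lowered the log2 ratios from 2.71 to 2.10 in RVC and from 2.47 to 1.44 in RVT, both still past 2-fold. Before centring, the ratios lay at the 97.0 percentile of all genes in RVC and the 93.1 percentile in RVT.

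SNAI1 (chromosome 20, 49982999 to 49988886, + strand) was the one member that was lower than S in 2 resistant libraries and higher in the other. SNAI1 levels were 8.34 for S (7.62 to 9.11), 3.30 for RV (2.82 to 3.83), 4.91 for RVC (4.19 to 5.73) and 13.5 for RVT (12.1 to 14.98), and no intervals overlapped. SNAI1 fell 2.53-fold in RV (2.12 to 3.03). The RVC level was 1.70-fold below S (1.42 to 2.04) and the RVT level 1.62-fold above it (1.40 to 1.86), both short of a call, and the latter shrank to a log2 ratio of 0.18 under TMM scaling from 0.69. RVT over RVC was 2.74-fold (2.27 to 3.33).

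SNAI2 (chromosome 8, 48917604 to 48921740, - strand) was the least counted factor in S and RV, with 33 and 31 UMIs. Its level was 0.564 for S (0.388 to 0.792), 0.591 for RV (0.401 to 0.839), 5.03 for RVC (4.30 to 5.86) and 1.42 for RVT (0.993 to 1.96). RVC was high and S and RV overlapped. SNAI2 rose 8.93-fold in RVC (6.12 to 13.4) and 2.51-fold in RVT (1.52 to 4.16), the latter from 36 UMIs. The RVT rise was lost under TMM scaling, with a log2 ratio of 0.81, and after centring on GC content, with 0.38. SNAI2 was 3.55-fold lower in RVT than in RVC (2.46 to 5.24).

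TWIST1 (chromosome 7, 19020991 to 19117672, - strand) increased in the order S and RV, RVC, RVT. Its level was 2.26 for S (1.89 to 2.67), 2.31 for RV (1.91 to 2.76), 5.91 for RVC (5.11 to 6.80) and 9.22 for RVT (8.07 to 10.5). TWIST1 rose 2.62-fold in RVC (2.09 to 3.30) and 4.09-fold in RVT (3.29 to 5.10), while S and RV were within 1.02-fold of each other. Centring on GC content left log2 ratios of 0.80 in RVC and 1.13 in RVT.

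TWIST2 (chromosome 2, 238848032 to 238910543, + strand) was lower in S than in every resistant library. Its level was 2.34 for S (1.97 to 2.77), 4.10 for RV (3.57 to 4.68), 5.28 for RVC (4.52 to 6.12) and 4.73 for RVT (3.92 to 5.65). The 3 resistant libraries overlapped as neighbours, although the interval of RVC over RV, at 1.29-fold (1.05 to 1.58), left out 1. Ratios to S were 1.75-fold in RV (1.41 to 2.19), 2.25-fold in RVC (1.79 to 2.84) and 2.02-fold in RVT (1.57 to 2.60). The RVT value lay just past 2-fold and fell under it in 6 of 8 other ways of processing, and the RVC value did so in 3.

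PRRX1 (chromosome 1, 170662728 to 170739419, + strand) had the highest level of any member in S and was lower in each resistant library. Its level was 21.6 for S (20.4 to 22.8), 4.16 for RV (3.62 to 4.75), 2.49 for RVC (1.98 to 3.09) and 1.497 for RVT (1.06 to 2.05). S stood far above the others. RVC and RVT overlapped, although the interval of RVT over RVC, at 0.602-fold (0.398 to 0.894), left out 1. PRRX1 fell 5.20-fold in RV (4.50 to 6.03), 8.69-fold in RVC (6.95 to 11.01) and 14.4-fold in RVT (10.5 to 20.5). Centring on GC content moved the RVT log2 ratio from -3.85 to -4.77. Before centring, the ratio of RV over S lay at the 0.538 percentile of all genes. PRRX1 made up 45.6% of the UMIs of the 7 factors in S, 16.3% (RV), 4.42% (RVC) and 2.78% (RVT). The lincRNA Z97200.1, chosen after its values were seen because it overlaps PRRX1 on the same strand, was at 2.82 (S), 0.496 (RV), 1.09 (RVC) and 0.276 (RVT). Because of that overlap, its reads and those of PRRX1 may not be fully separated.

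**Figure D1:**
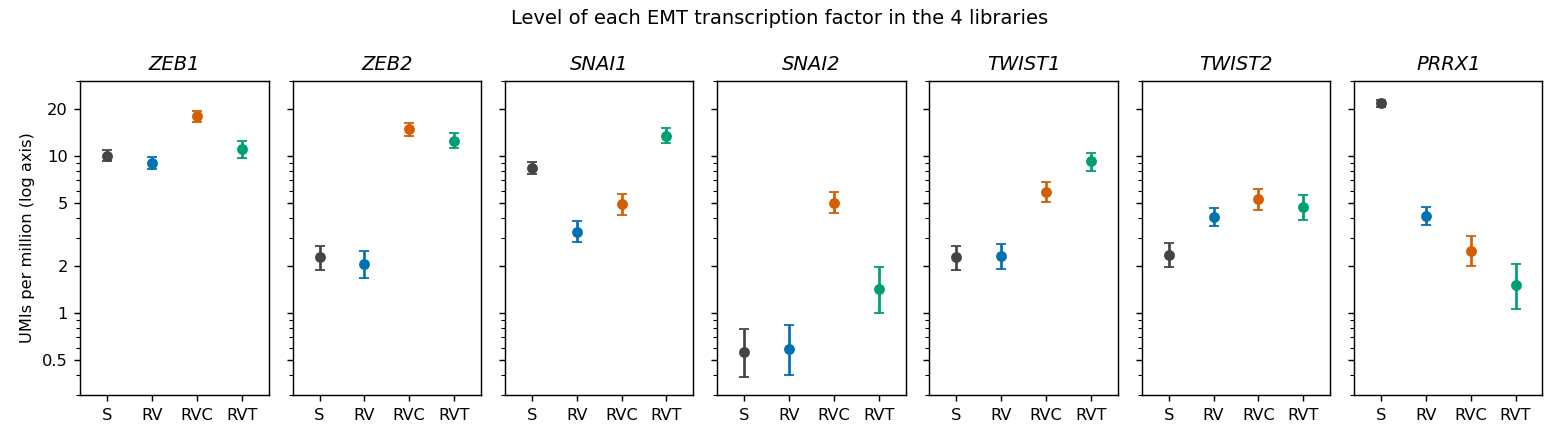
Level of each EMT factor in CPM (log axis) in the S, RV, RVC and RVT libraries, 1 library each, with exact Poisson 95% intervals as bars. PRRX1 is at 21.6 in S and at most 4.16 elsewhere, whereas ZEB2 is at 2.26 or less in S and RV and at least 12.5 in RVC and RVT.

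Summed over the 7 factors, the level was 47.4 for S (45.7 to 49.2), 25.5 for RV (24.1 to 26.9), 56.3 for RVC (53.7 to 58.9) and 53.8 for RVT (51.0 to 56.8). RV was lowest, and RVC and RVT overlapped. The S sum was mostly PRRX1, ZEB1 and SNAI1, and the RVT sum was spread over SNAI1 (25.02%), ZEB2 (23.3%), ZEB1 (20.4%) and TWIST1 (17.1%). In RVC, ZEB1 (31.8%) and ZEB2 (26.3%) took the larger shares.

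Members past 2-fold were then counted beside all genes whose mean level reached 1 CPM, a filter that all 7 members passed. SNAI2, at 0.564 in S and 0.591 in RV, passed it only through its higher levels in RVC (5.03) and RVT (1.42). Its rises there are therefore partly favoured by the filter. The same filter was used for all genes, so background and list genes high in only some libraries entered in the same way. In RV over S, SNAI1 and PRRX1 fell and no member rose, where 3.20% of 12636 genes fell and 3.47% rose (6.67% either way). In RVC over S, 4 members rose (ZEB2, SNAI2, TWIST1 and TWIST2) and PRRX1 fell, where 23.8% of genes rose and 22.3% fell (46.2% either way). In RVT over S the same 4 rose and PRRX1 fell, where 34.1% of genes rose and 21.7% fell (55.8% either way). The median log2 ratio of the members was -0.15 (RV), 1.17 (RVC) and 1.01 (RVT), beside 0.02, 0.21 and 0.41 over all genes. These 3 comparisons share the S library, so a low or high count in S enters each of them.

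**Figure D2:**
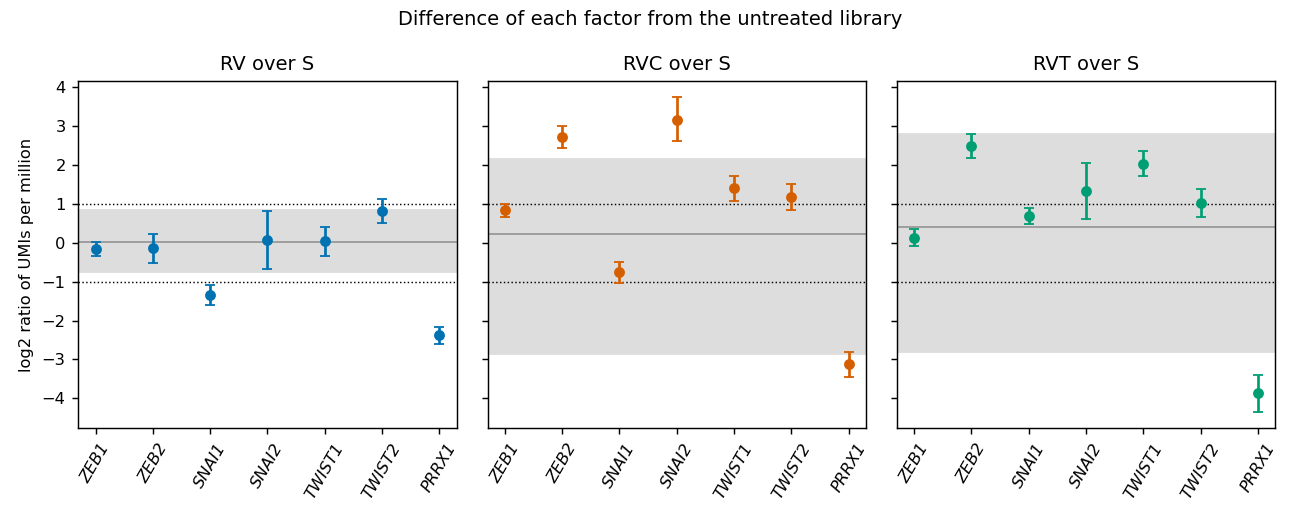
Log2 ratio of each EMT factor to S in RV, RVC and RVT, 1 library each, with exact 95% intervals as bars; grey bands run from the 5th to the 95th percentile of all genes with at least 1 CPM, grey lines are their medians and dotted lines mark 2-fold. PRRX1 lies below the band in all 3 panels, SNAI1 below it in RV, and ZEB2 and SNAI2 above it in RVC, while no member lies above the wider RVT band.

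Against RV, ZEB2, SNAI2 and TWIST1 rose in RVC, where 24.4% of genes rose and 23.6% fell (48.0% either way), and ZEB1 lay just under the limit at 1.99-fold (1.76 to 2.25). In RVT over RV, ZEB2, SNAI1, SNAI2 and TWIST1 rose and PRRX1 fell, where 34.2% rose and 22.7% fell (56.8% either way). SNAI1 was 4.08-fold higher in RVT than in RV (3.39 to 4.93). Against RV, the rise of SNAI2 in RVT was lost under TMM scaling (log2 ratio 0.79) and GC centring (0.32), and that of TWIST1 in RVC under GC centring (0.79). Calls were also gained in RVC over RV. ZEB1 passed 2-fold under some alternatives, such as with all barcodes kept (1.04), and PRRX1 fell past 2-fold under GC centring (-1.21). Between the combinations, SNAI1 rose and SNAI2 fell in RVT over RVC, where 21.7% of genes rose and 12.2% fell (34.0% either way). Under TMM scaling ZEB1 and PRRX1 also fell in RVT over RVC, with log2 ratios of -1.0 and -1.04.

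The balance was expressed as the ZEB1 and TWIST1 UMIs in percent of those of ZEB1, TWIST1, ZEB2 and SNAI2. No scaling of library totals alters this share, but a trend with GC content can. GC content of the transcript end was 36.4% for ZEB1 and 32.8% for TWIST1, against 31.4% for ZEB2 and 30.2% for SNAI2. The share was not centred on GC content, and the part of that trend was not tested. UMIs were counted from transcript ends without regard to gene length. The share was 81.3% for S (78.6 to 83.9, 884 UMIs), 81.1% for RV (78.1 to 83.9, 731 UMIs), 54.6% for RVC (51.9 to 57.2, 1437 UMIs) and 59.2% for RVT (55.8 to 62.5, 867 UMIs). S and RV overlapped, RVC and RVT overlapped, and the pairs were apart. Overlap of intervals does not show that shares are equal, and the difference within a pair was not tested.

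The parts of the balance differed between RVC and RVT. ZEB1 in percent of both ZEB genes was 81.6% for S, 81.5% for RV, 54.7% for RVC (51.7 to 57.7) and 46.7% for RVT (42.7 to 50.8). TWIST1 in percent of TWIST1 and SNAI2 was 80.0% in S, 79.6% in RV and 54.0% in RVC (48.7 to 59.2), but 86.7% in RVT (82.0 to 90.5). ZEB2 thus gained on ZEB1 in RVC and RVT, whereas SNAI2 gained on TWIST1 in RVC and not in RVT. The level of the ZEB1 and TWIST1 pair was also higher in RVC (23.8) and RVT (20.2) than in S (12.3), so the shift came with more of both pairs in RVC. In RVT the higher level of that pair came from TWIST1, since ZEB1 over S had a log2 ratio of 0.13, which was -0.38 under TMM scaling and -0.55 after centring on GC content.

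**Figure D3:**
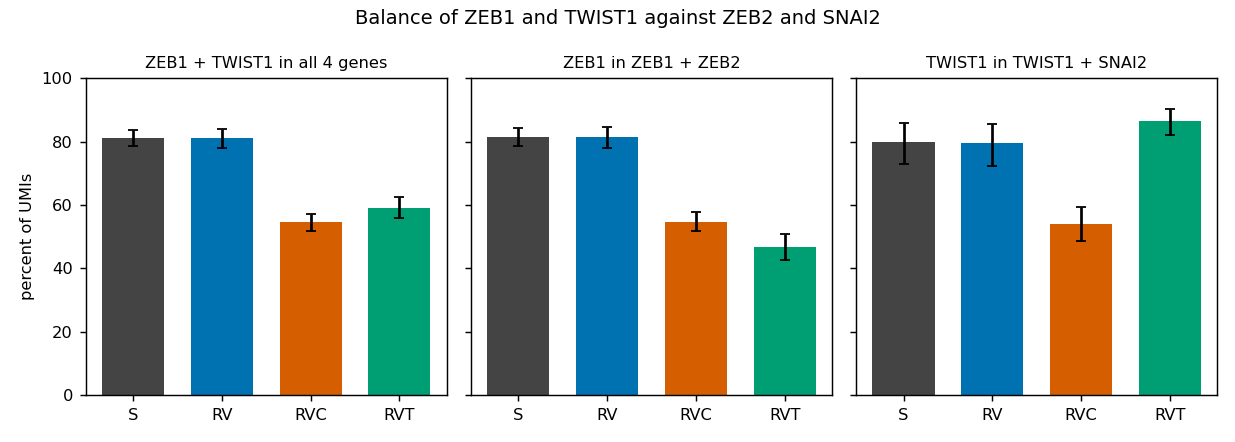
Percent of UMIs taken by ZEB1 and TWIST1 among the 4 genes, by ZEB1 among the ZEB genes, and by TWIST1 among TWIST1 and SNAI2, in 1 library each, with Clopper-Pearson 95% intervals. The first panel shows 81.3% and 81.1% in S and RV against 54.6% and 59.2% in RVC and RVT, and the third shows RVT at 86.7%.

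Each factor was seen in few cells. At full depth the share of cells with a UMI ran from 0.426% (SNAI2 and PRRX1 in RVT) to 15.3% (PRRX1 in S). To compare libraries, every cell was thinned to 1500 UMIs, which left out 397 RVC and 844 RVT cells and no S or RV cell. ZEB2 was then seen in 0.395% of S, 0.215% of RV, 2.17% of RVC and 1.83% of RVT cells, against unthinned shares of 2.04%, 2.54%, 6.004% and 3.68%. PRRX1 was seen in 3.55%, 0.551%, 0.456% and 0.210% of thinned cells, against 15.3%, 4.81%, 1.06% and 0.426% unthinned. SNAI2 was seen in 0.0632%, 0.0239%, 0.830% and 0.184% of thinned cells. All libraries were described as A375, so no cell type that should lack a factor was at hand to measure free RNA. Whether each library held only that line was not tested.

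In most libraries the number of cells with a UMI of a factor was about that which depth alone gives. PRRX1 in S was the exception, with 967 cells holding a UMI where depth alone gave 1134, a ratio of 0.853. There, 225 cells held 2 or more PRRX1 UMIs and 1 cell held 6. SNAI1 in RV had a ratio of 0.936, with 8 UMIs in 1 cell, and the other ratios lay from 0.95 to 1.01. SNAI2 in S had 33 UMIs in 33 cells, against 32.9 cells from depth. For sparse factors the ratio can hardly fall unless the UMIs sit in very few cells. Values near 1 therefore do not show an even spread. Of 21 pairs of factors in each library, counted at full depth after the thinned counts had proved sparse, only ZEB1 and PRRX1 in S had a number of shared cells whose interval left out the number from depth: 82 cells (65.2 to 102) against 110. The number from depth takes the UMIs of both genes as evenly spread, which those of PRRX1 in S were not, so this value says nothing of the pair itself. In RVC, ZEB1 and ZEB2 shared 38 cells (26.9 to 52.2) against 42.9, and ZEB2 and SNAI2 shared 12 (6.20 to 21.0) against 12.6. Cells with both ZEB genes were thus about as frequent in RVC as their separate levels give. In S they numbered 10 (4.80 to 18.4) against 12.8, in RV 19 (11.4 to 29.7) against 13.0 and in RVT 17 (9.90 to 27.2) against 11.8. These intervals are wide and do not show equality.

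Cells were also split by a UMI of SOX10, MITF, AXL, NGFR or CDKN1A, or by mitotic genes. These splits gave 147 comparisons of a factor between cells with and without the marker, and in 12 the intervals did not overlap, 7 of them in S. The same count was not made over all genes, so the 12 are not set against a background. In S, PRRX1 was at 15.5 in AXL+ and 27.9 in AXL- cells, and at 13.5 in MITF+ and 22.5 in MITF- cells. It was at 16.4 in cells with CDKN1A, a cell cycle inhibitor, and 24.4 in cells without, and a single UMI (1.55) was found in the 58 NGFR+ cells. PRRX1 thus lay lower in untreated cells that held any of these 4 markers. Its intervals overlapped between SOX10+ and SOX10- cells (22.4 and 20.9) and between mitotic and other cells (21.3 and 21.7). SNAI1 was at 4.51 in MITF+ and 8.76 in MITF- cells, whereas ZEB1 and SNAI1 were higher in SOX10+ S cells (11.5 against 8.55 and 9.42 against 7.24). Cells with a marker were also deeper, for AXL with a median of 9364 UMIs against 8331, and the part of depth was not tested.

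Of the 12, 2 were among 42 comparisons in RV, 2 among 28 in RVC and 1 among 35 in RVT, against 7 among 42 in S, and RVC and RVT cells were shallower. In RV, PRRX1 was at 2.68 in MITF+ and 4.57 in MITF- cells, and SNAI1 was at 4.36 in mitotic and 2.60 in other cells. The SNAI1 intervals take UMIs as independent, although 8 of them sat in 1 RV cell, whose side of the split was not looked up. By AXL the level intervals in RV overlapped and those of the ratio left out 1, with PRRX1 at 3.77 in AXL+ and 5.57 in AXL- cells (0.502 to 0.925) and SNAI1 at 2.95 and 4.58 (0.461 to 0.912). The same held for PRRX1 by NGFR in RV, at 2.62 with and 4.37 without (0.342 to 0.984). In S it held for SNAI1 by AXL, at 7.42 and 9.28 (0.666 to 0.960), and by CDKN1A, at 7.07 and 9.02 (0.641 to 0.954). In RVC, no SNAI1 UMI was found in 251 MITF+ cells (exact interval to 2.55) against 5.14 in the rest, and TWIST2 was at 3.8 in mitotic and 6.40 in other cells. In RVT, ZEB1 was at 19.1 in the 359 mitotic cells and 10.5 in the rest. For ZEB2 and SNAI2 the intervals of the levels overlapped in each of these splits, although the interval of the ratio left out 1 in some. SNAI2 was at 1.12 in MITF+ and 0.440 in MITF- RV cells (ratio 1.15 to 5.50) and at 2.35 in CDKN1A+ and 1.11 in CDKN1A- RVT cells (1.02 to 4.32). ZEB2 was at 12.1 in CDKN1A+ and 15.8 in CDKN1A- RVC cells (0.612 to 0.946), and in RV at 2.60 in SOX10+ and 1.73 in SOX10- cells (1.005 to 2.24) and at 0.925 in NGFR+ and 2.197 in NGFR- cells (0.151 to 0.948).

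Splits by SPANXB1, a cancer-testis gene, by the hair keratin KRT81 and by the noncoding RNA LINC01419 were added after seeing the data. With the split by fibroblast markers described below, they gave 84 comparisons. In 7 of these the intervals did not overlap, 5 of them in S, and none of the 7 came from the fibroblast split. They too are not set against a background. In S, PRRX1 was at 11.02 in SPANXB1+ cells (9.73 to 12.4) and 28.97 in SPANXB1- cells (27.2 to 30.8), and at 15.3 against 31.9 for KRT81. SNAI1 followed the same order, with 5.59 against 10.2 for SPANXB1 and 6.56 against 11.2 for KRT81. ZEB1 was at 7.76 in SPANXB1+ and 11.6 in SPANXB1- cells. PRRX1 was at 21.4 with and 22.1 without a UMI of LINC01419. In the resistant libraries, SNAI1 in RVC was at 5.33 with LINC01419 (4.51 to 6.25) and 2.49 without (1.28 to 4.34, 12 UMIs), and TWIST2 in RV was at 4.21 with SPANXB1 and had no UMI in the 168 cells without (exact interval to 2.58). By KRT81, some level intervals overlapped while the interval of the ratio left out 1. This held for ZEB1 in S (0.679 to 0.947) and RV (0.635 to 0.928), and for SNAI2 in RVT (0.0242 to 0.810, 2 UMIs in KRT81+ cells). SPANXB1 was detected in 36.6% of S, 96.0% of RV, 0.105% of RVC and 93.9% of RVT cells. For KRT81 the shares were 59.3%, 64.0%, 0.0131% and 20.2%. S and RV were also compared within cells with or without a UMI of SPANXB1 or KRT81. Such cells still differed in other ways, since LINC01419 was detected in 68.7% of S but 0.120% of RV cells. A cell without a UMI may still express the marker. PRRX1 was 2.68-fold lower in SPANXB1+ RV cells than in SPANXB1+ S cells, with 4.12 against 11.02. SNAI1 was 1.70-fold lower there, with 3.29 against 5.59 (log2 ratio -0.76, -1.10 to -0.43), which is no longer past 2-fold. Within KRT81+ cells PRRX1 was 3.89-fold lower and SNAI1 2.003-fold lower in RV. In cells without the marker, PRRX1 was 5.19-fold (SPANXB1-) and 6.88-fold (KRT81-) lower in RV, and SNAI1 was 2.93-fold and 3.35-fold lower, where the SPANXB1- values rest on 168 RV cells.

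**Figure D4:**
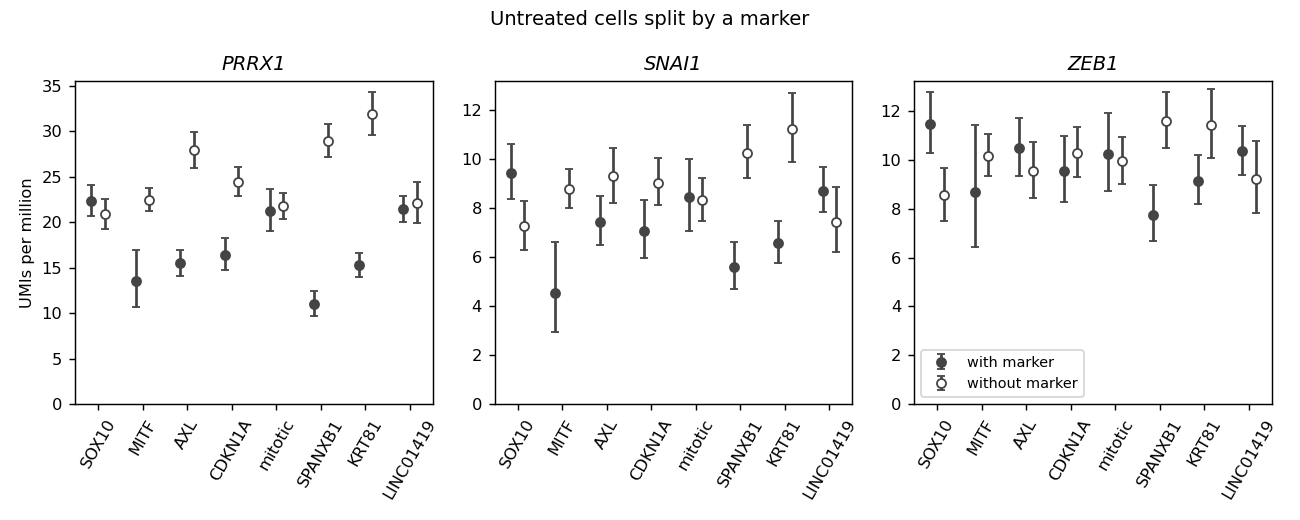
Levels of PRRX1, SNAI1 and ZEB1 (CPM) in untreated S cells with (filled) and without (open) a UMI of each marker, or with and without UMIs of at least 3 mitotic genes, with exact Poisson 95% intervals. PRRX1 is at 11.02 in SPANXB1+ and 28.97 in SPANXB1- cells, whereas LINC01419+ and LINC01419- cells overlap at 21.4 and 22.1.

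Because fibroblast markers were higher in RVC and RVT, the factors were also compared between cells with and without a UMI of any of the 11 markers, again after seeing the data. Such a UMI was found in 46.2% of RVC, 13.5% of RVT, 3.22% of S and 3.18% of RV cells. In RVC, ZEB2 was at 14.2 with (12.5 to 16.2) and 15.3 without (13.5 to 17.3), and SNAI2 was at 5.13 with (4.09 to 6.35) and 4.94 without (3.93 to 6.13). In RVT, ZEB2 was at 12.7 with and 12.5 without. Intervals of the levels overlapped in all 28 comparisons. For SNAI1 in RV, at 6.64 with (13 UMIs) and 3.17 without, the interval of the ratio (1.09 to 3.69) left out 1. The side of the 1 RV cell with 8 SNAI1 UMIs was not looked up here either. At this depth a cell without such a UMI may still express the markers, so the split does not separate cells that express them from cells that do not. With the cells that held a marker UMI left out, TWIST2 in RVT over S had a log2 ratio of 0.95, and the other calls against S kept their side of 2-fold.

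**Figure D5:**
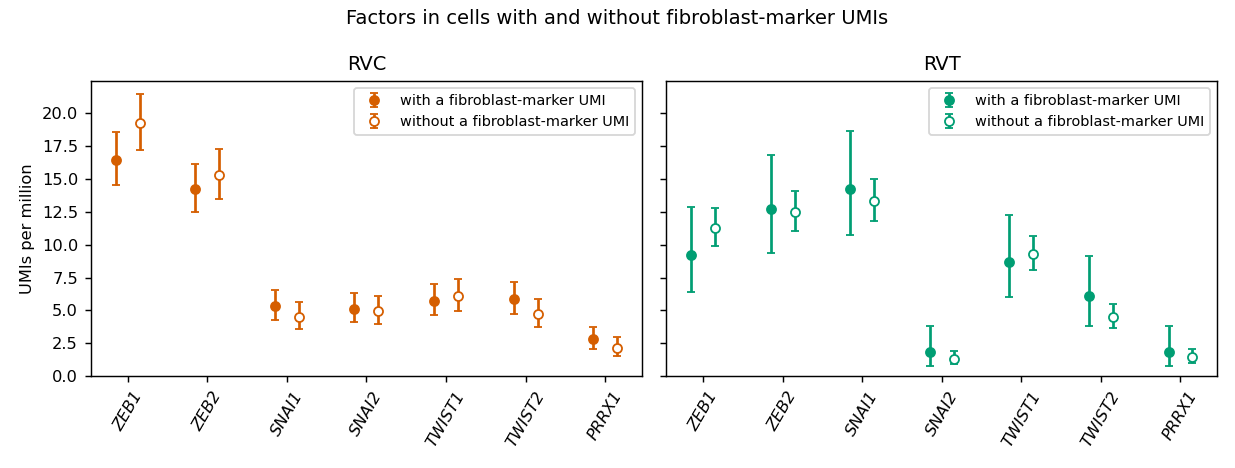
Levels of the 7 EMT factors (CPM) in RVC and RVT cells with (filled) and without (open) a UMI of any of 11 fibroblast markers, 1 library each, with exact Poisson 95% intervals. ZEB2 is at 14.2 and 15.3 in RVC and at 12.7 and 12.5 in RVT, and the intervals of the paired points overlap for each factor.

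The genes with which these factors work were examined next. TCF4, an E protein that pairs with TWIST proteins and itself promotes EMT, was at 9.60 (S), 9.63 (RV), 40.6 (RVC) and 50.02 (RVT), and rose 4.23-fold in RVC and 5.21-fold in RVT. ID1 and ID3, which sequester E proteins, fell 2.16-fold and 3.89-fold in RV and 7.83-fold and 13.2-fold in RVC, whereas RVT over RVC was 9.05-fold and 21.0-fold. Like SNAI1, both ID genes were lower than S in RV and RVC and not in RVT, where ID1 was at 267 against 231 in S and ID3 at 400 against 250. ID2 rose 5.96-fold in RVC and 16.9-fold in RVT. CTBP2, a corepressor bound by ZEB proteins, was at 24.0 (S), 24.5 (RV), 42.5 (RVC) and 119 (RVT), a 4.97-fold rise in RVT, while CTBP1 ranged from 19.8 to 26.9. KDM1A, the histone demethylase recruited by Snail, ranged from 18.7 in S to 31.2 in RVT without a call.

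Of 36 other EMT factors and partners, 29 passed the filter. In RV over S, SOX9 rose (3.45%, against 3.47% of all genes) and FOXF1, ID1, ID3 and TBX2 fell (13.8% against 3.20%). In RVC over S 10 rose (34.5%, against 23.8% of all genes) and 7 fell (24.1% against 22.3%), and in RVT over S 11 rose (37.9% against 34.1%) and 6 fell (20.7% against 21.7%). Median log2 ratios were -0.04, 0.42 and 0.56, beside 0.02, 0.21 and 0.41 over all genes. The mesoderm factor FOXF1 rose 64.4-fold in RVC and 50.5-fold in RVT from 0.325 in S, and SOX4 rose 7.01-fold and 7.28-fold. Between the combinations FOXC1 rose 5.04-fold in RVT over RVC, and HMGA2, a chromatin protein that promotes SNAI1 and TWIST1 expression, fell 3.35-fold.

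The stability of EMT factor proteins is set by ubiquitin ligases, kinases and deubiquitinases, and mRNA levels say nothing of it directly. Of 32 such genes, 29 passed the filter. In RV over S PRKD1 fell (3.45%, against 3.20% of all genes) and none rose (against 3.47%). In RVC 8 rose (27.6%, against 23.8% of all genes) and none fell (against 22.3%), and in RVT 12 rose (41.4% against 34.1%), while OTUB1 (3.58-fold) and USP1 (2.29-fold) fell (6.90% against 21.7%). USP47, a deubiquitinase of Snail, rose from 9.02 in S to 20.2 in RVC and 30.8 in RVT. The ubiquitin ligase FBXW7 rose 3.38-fold and the kinase LATS2 3.56-fold in RVT. Median log2 ratios of the list were -0.03, 0.46 and 0.85, beside 0.02, 0.21 and 0.41 over all genes.

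Most of the epithelial genes that EMT factors repress were low in these libraries. CDH1 and the miR-200 host gene MIR200CHG had no UMI in any library, where the floor of 3 UMIs is 0.0513 CPM in S and 0.118 in RVT. Of 46 epithelial genes listed in every table, 7 to 14 had no UMI in a library and 14 passed the filter. In RV over S KRT18 and MAPK13 rose (14.3%, against 3.47% of all genes) and none fell (against 3.20%). In RVC over S 7 rose (50%) and KRT18, LLGL2, PKP2 and PKP3 fell, where 23.8% of all genes rose and 22.3% fell. In RVT over S 6 rose (42.9%) and CLDN4, JUP, KRT18 and PKP3 fell, where 34.1% of all genes rose and 21.7% fell. The 4 falls in either comparison were 28.6% of the 14 genes. Median log2 ratios of the 14 were 0.32 (RV), 0.85 (RVC) and 0.30 (RVT), beside 0.02, 0.21 and 0.41 over all genes. KRT18, a keratin that A375 expresses strongly, fell 13.5-fold in RVC and 5.41-fold in RVT. MUC1 rose 9.59-fold in RVT, and DSG2, a desmosomal cadherin, rose 2.39-fold in RVC and 4.68-fold in RVT.

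Mesenchymal genes moved in both directions. Of 48, 44 passed the filter (43 with a ratio of RV over S). In RV over S 7 rose (16.3%, against 3.47% of all genes) and FAP, PDGFRA and TNC fell (6.98% against 3.20%). In RVC over S 22 rose (50%) and 7 fell (15.9%), beside 23.8% and 22.3% of all genes. In RVT over S 27 rose (61.4%) and 8 fell (18.2%), beside 34.1% and 21.7%. Median log2 ratios were -0.05, 0.95 and 1.38, beside 0.02, 0.21 and 0.41 over all genes. CDH2, encoding N-cadherin, was at 37.0 (S), 26.3 (RV), 77.8 (RVC) and 76.3 (RVT), 2.11-fold and 2.06-fold over S. FN1, encoding fibronectin, rose 7.70-fold in RVC and 2.53-fold in RVT. VIM, the mesenchymal intermediate filament, fell 4.35-fold in RVC and 7.35-fold in RVT, from 2433 in S to 559 and 331. The matrix gene SPARC was at 321 in S, 142 in RVC and 1283 in RVT. Of the 11 fibroblast markers above, 10 belong to this list.

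Melanocyte genes are those beside which ZEB2 and SNAI2 are usually found. Of 22 melanocytic and neural crest genes that passed the filter, L1CAM, MITF and NGFR rose in RV over S (13.6%, against 3.47% of all genes) and 9 fell (40.9% against 3.20%). In RVC over S AQP1, BCL2A1, RAB27A and TYRP1 rose (18.2%, against 23.8% of all genes) and 13 fell (59.1% against 22.3%). In RVT over S AQP1, GPM6B, MITF, TFAP2A and TYRP1 rose (22.7% against 34.1%) and 12 fell (54.5% against 21.7%). MITF, the master regulator of melanocytes, was at 9.77 (S), 20.01 (RV), 8.13 (RVC) and 41.9 (RVT). SOX10 was at 86.5 (S), 39.9 (RV), 0 (RVC) and 19.7 (RVT), at least 951-fold lower in RVC than in S with the floor of 3 UMIs. ERBB3 fell 217-fold in RVC and 104-fold in RVT.

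Genes of the undifferentiated melanoma state, with which ZEB1 and TWIST1 are usually found, moved in both directions. Of 39 that passed the filter, 10 rose (25.6%, against 3.47% of all genes) and SOX2 fell (2.56% against 3.20%) in RV over S. In RVC 18 rose (46.2% against 23.8%) and 10 fell (25.6% against 22.3%), and in RVT 12 rose (30.8% against 34.1%) and 13 fell (33.3% against 21.7%). AXL, a receptor tyrosine kinase of invasive melanoma cells, was at 94.7 (S), 170 (RV), 78.5 (RVC) and 98.3 (RVT). NGFR, a receptor of neural crest-like cells, rose 10.3-fold in RV and had no UMI in RVT. WNT5A rose 9.97-fold in RVC and 5.08-fold in RVT. TEAD1 rose 4.67-fold in RVT. CXCL8, a chemokine, was at 87.9 in S, 1006 in RVC and 7.44 in RVT. ANKRD1, a YAP target, fell 419-fold in RVC and 36.9-fold in RVT from 101.6 in S, and BIRC3 fell 12.8-fold in RVT. UCN2 was at 9.96 in S and had 1 UMI in RVT. Some genes of this list are also in another. Examples are NGFR (melanocytic and neural crest), KRT18 (epithelial) and PDGFRB (mesenchymal), whose changes count in both.

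The genes whose levels over the 4 libraries were most like those of a factor were found from the largest difference of centred log2 levels, among 8841 or 8842 genes with at least 5 CPM. With only 4 points many genes fit the patterns of ZEB1, TWIST1 and TWIST2, where 1179, 1222 and 799 genes lay within 0.5. For ZEB2 there were 90, led by AC073611.1 (0.09), BRI3 (0.16) and CCDC71L (0.18). SNAI1 had 43, led by the cystine transporter gene SLC7A11 (0.21), TCF7L2 (0.24) and RERE (0.27). SNAI2 had 14, led by CDR2L (0.12), RAI14 (0.16) and COX16 (0.16). PRRX1 had 1, TSPAN13 (0.46), followed by PMEPA1 (0.53) and NES (0.71), which encodes nestin. ZEB1 was closest to DAXX, TMEM138 and TXNDC9, TWIST1 to genes that included XIAP and XRN1, and TWIST2 to SPRYD3, CEP250 and RAB3B.

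Antisense genes were counted at low levels. ZEB1-AS1 was at 3.35 (S), 4.78 (RV), 2.15 (RVC) and 3.43 (RVT), lowest where ZEB1 was highest. ZEB2-AS1 had at most 4 UMIs in a library, too few to compare. SNAI3-AS1, antisense to a gene of the Snail family that is not a member, was at 0.957 in S and from 0.425 to 0.477 in the resistant libraries. ZEB1-AS1 and ZEB2-AS1 overlap their partners on the opposite strand, and whether the deposited counting used the strand is not given in the sources used here, so reads of each pair may not be fully separated.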

How the data were processed

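The authors captured A375 cells with 10x Genomics Chromium v2 reagents and processed reads with Cell Ranger on GRCh38, per the labels with bcl2fastq 2.20.0.422. They deposited UMI counts per gene and barcode as whole numbers without normalization. The gene annotation is not given in the sources used here, and 32991 of 34241 identifiers are listed in all 4 tables.

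Barcodes with at least 500 genes and at most 20% mitochondrial UMIs were kept. The highest doublet scores (scrublet in scanpy 1.11.5) were removed at 0.8% per 1000 barcodes, because the caller's own threshold marked 4, 2, 1 and 0 barcodes. Counts were summed per gene and divided by the library total, 58519152 UMIs (S), 52461572 (RV), 32974745 (RVC) and 25390117 (RVT). Symbols were matched through GENCODE 29. The background held genes listed in all 4 tables with at least 1 CPM in the mean, 12679 in all, and genes with at most 3 UMIs in both libraries had no ratio. A count of 0 was set to 3 UMIs. Calls were set at 2-fold, since 1 library per condition allows no test. Intervals were exact Poisson, conditional binomial and Clopper-Pearson (scipy 1.17.1, Python 3.11.15), and TMM factors came from edgeR 4.0.16. Mitotic cells held UMIs of at least 3 of 7 mitotic genes, and splits needed 50 cells on each side. GC content was that of the last 500 bases of the longest transcript.

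The members and gene lists were chosen with earlier results of these data known. Named were all members, 12 genes (CDH1, CDH2, VIM, FN1, MITF, SOX10, AXL, NGFR, TCF4, CTBP1, CTBP2, KDM1A), up to 3 rises and 3 falls per list among genes with at least 5 CPM, 3 genes most like each member, and antisense genes; 1 of the genes most like a member is not reported here. Other list genes are named where a count was 5 or fewer or for comparison, after their values were seen. The calculation of ratios was tested on simulated counts. MIR205HG was not matched. Alternatives were other cell filters, no doublet removal, TMM scaling, totals without ribosomal protein and mitochondrial genes, equal weight of cells, GC centring, other backgrounds and other thinning.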

Additional observations from a re-analysis of the deposited data

Results flagged for a closer look

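SNAI1 differed from S in opposite directions among the resistant libraries, with log2 ratios of -1.34 in RV and -0.76 in RVC and 0.69 in RVT on the scale of library totals. The difference between these ratios was not tested, as each rests on 1 library. Under TMM scaling the ratios for RV, RVC and RVT were -1.38, -0.98 and 0.18, the last within the counting error of no difference, and after centring on GC content they were -1.36, -0.81 and 0.56.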

How the results depend on the processing

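Over 8 alternatives and 42 member ratios, 312 of 336 values stayed on their side of 2-fold, 24 crossed it, and no called ratio changed sign. Of the 24, GC centring accounted for 9 and TMM scaling for 6. GC centring gave 3 members past 2-fold in RVC over S and 3 in RVT over S in place of 5 each, and TMM scaling gave 3 in RVT over S. In RVT over RVC both gave 4 in place of 2. TMM scaling shifted every gene by -0.04 in RV over S, -0.21 in RVC and -0.52 in RVT on the log2 scale. Under it ZEB1 went from 0.13 to -0.38 in RVT over S and from 0.29 to -0.18 in RVT over RV, and GC centring gave -0.55 in RVT over S. The cause of these differences was not tested. The ZEB1 and TWIST1 share, for which GC centring was not run, stayed within its interval under other cell filters and equal weight of cells but not in thinned RV cells, where few UMIs remained and it was 87.5%. The genes past 2-fold in RV over S were 1.91% (higher) and 1.25% (lower) at 10 CPM and 8.83% and 7.01% without a filter. Of 56 thinned shares under another seed or at 1000 UMIs, 17 left their interval. Leaving out cells with fibroblast markers was chosen after seeing the data. At this depth SNAI2 in S, RV and RVT rests on 36 UMIs or fewer, and PRRX1 in RVT on 38. No paired analysis was possible because each condition has 1 library.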
